A study of Mus musculus with 12 samples.

Results

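Eea1 encodes early endosome antigen 1, a long coiled-coil protein that tethers vesicles to early endosomes. It was followed as 1 gene of 16094 in the spleen cells of lupus-prone and control mice, across every annotated cell type and then within CD4 and CD8 T cells. The gene was selected on its measured values in CD4 T cells, which differed between the groups, so the differences of Eea1 between SLE.yaa and WT mice below are a description and carry no test. The study profiled CD45+ spleen cells, isolated on magnetic beads and run through 10x Genomics droplets, with B and T cell receptor libraries of the same cells. The SLE.yaa group was 2 male mice of strain B6.Sle1yaa, a lupus-prone C57BL/6 line with the Sle1 interval and the Y-linked accelerator Yaa. The WT group was 2 male mice of strain C57BL/6. Ages deposited with the B cell receptors, with no unit, were 14.9 in both SLE.yaa mice and 14.4 in both WT mice, so age and strain cannot be told apart. The groups stand under a label that mentions chimeras, and it is left unstated in those labels whether chimeras were made.

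Early endosomes receive cargo taken up at the plasma membrane and sort it for recycling or for breakdown in lysosomes. Eea1 binds the lipid phosphatidylinositol 3-phosphate through its FYVE domain and binds the small GTPase Rab5, and it bridges incoming vesicles to the endosome before membrane fusion. In T cells this route returns surface receptors such as the T cell receptor and CTLA-4 to the membrane or removes them.

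The gene lies on mouse chromosome 10 at 95940663 to 96045518 of GRCm38.p6, on the plus strand, and spans 104856 bases. No other RefSeq gene overlaps it, so its values share no span with another annotated gene. Its promoter window from RefSeq, chr10:95940413-95940712 on the plus strand, is shown because the start of the gene is the one regulatory sequence at hand for a gene whose level differed so widely between cells. Capitals mark the GC box GGGCGG and the CCAAT box CCAAT on either strand, and neighbouring GC boxes can overlap.
Eea1: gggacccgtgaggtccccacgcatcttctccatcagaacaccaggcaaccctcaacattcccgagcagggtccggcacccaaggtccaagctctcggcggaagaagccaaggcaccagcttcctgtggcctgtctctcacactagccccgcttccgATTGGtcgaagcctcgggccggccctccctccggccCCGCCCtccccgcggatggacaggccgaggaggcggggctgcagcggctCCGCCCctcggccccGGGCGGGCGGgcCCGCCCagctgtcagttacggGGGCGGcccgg
The window holds 250 bases before and 50 bases after the start, with 71.7% G and C and 27 CpG pairs, against medians of 52.7% and 7 over 32851 mouse promoters of the same length. GGGCGG occurred 6 times, 3 on each strand, and 35.7% of those promoters hold it. CCAAT occurred once, on the minus strand, and 37.4% hold it. The letters of the NFAT core TTTCC (in 61.3% of promoters), the AP-1 site TGANTCA (7.81%), the CRE TGACGTCA (1.79%) and the E box CACGTG (7.15%) were not in this window on either strand.

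The table held 22285 cells, with 4961 and 6130 in SLE.yaa 1 and 2 and 5497 and 5697 in WT 1 and 2. Total UMI counts per mouse ran between 21793635 and 28877299, and median UMIs per cell between 3467 and 4695. The mouse was the replicate, so each ± on a level is the SD over n = 2 mice. Levels are in vpm, the mean depth-adjusted value per cell scaled to 1000000 over all genes and then scaled between the mice within a cell type. A cell with Eea1 is one with a value above 0, and intervals of shares are exact binomial 95% intervals that cover counting error only. A barcode shared with another library occurred in 510 cells, 111 of them CD4 or CD8 cells. The markers of the annotation were checked: Cd3e had a value in 98.1% and 96.4% of the CD4 cells of SLE.yaa 1 and 2 and in 93.5% of those of each WT mouse. Cd4 itself had a value in 74.8% and 78.6% of them in the SLE.yaa mice and in 64.5% and 62.8% in the WT mice, and Cd8a in 0.945% to 2.40% of CD4 cells over the 4 mice. The B cell gene Cd79a had a value in 13.1% and 18.0% of the CD4 cells of the SLE.yaa mice and in 20.8% and 16.2% of those of the WT mice, and in at least 99.5% of B cells.

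Eea1 was highest in the CD4 T cells of the SLE.yaa mice, with 511 and 619 vpm in SLE.yaa 1 and 2, against 22.0 and 26.5 vpm in WT 1 and 2. The means were 565 ± 76.8 vpm in SLE.yaa mice and 24.3 ± 3.15 vpm in WT mice, a 23.3-fold difference, or 4.07 on the scale of log2(vpm + 10). In CD8 T cells Eea1 had 42.0 and 63.3 vpm in SLE.yaa mice, against 16.5 and 12.6 vpm in WT mice. These means of 52.6 ± 15.1 and 14.5 ± 2.77 vpm differed 3.62-fold (log2 difference 1.34). Neither T cell type showed any overlap between the groups, and the gap in CD4 cells was much the wider.

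Outside T cells the differences were small. Neutrophils, annotated PMN, had 29.0 and 38.7 vpm in SLE.yaa mice and 18.9 and 14.3 vpm in WT mice, a log2 difference of 0.72 without overlap. Early B cells had 56.7 and 62.2 vpm in SLE.yaa mice and 56.1 and 28.0 vpm in WT mice, where the 2 closest mice were almost equal. In the main B cells, the most numerous type, Eea1 had 37.8 and 39.3 vpm in SLE.yaa mice and 37.8 and 34.9 vpm in WT mice. The groups overlapped in B cells, interferon-marked B cells (B-ISG), dendritic cells, macrophages and NK cells. NK cells went in opposite directions within each group, with 76.9 and 41.0 vpm in SLE.yaa mice and 47.4 and 74.7 vpm in WT mice.

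The order of the types also differed between the groups. In SLE.yaa mice CD4 T cells came first, followed by early B cells, NK cells, dendritic cells, CD8 T cells, macrophages, B-ISG, B cells and neutrophils. Every neighbouring pair below CD4 cells overlapped between the mice. In WT mice CD4 T cells came seventh of 9 types, below B cells and above neutrophils and CD8 T cells, and they overlapped with neither neighbour. WT CD8 T cells, the lowest, overlapped with WT neutrophils. Plasma cells, basophils and plasmacytoid dendritic cells had fewer than 20 cells in at least 1 mouse and were left out of this order. Each type was scaled between mice on its own, so positions across types are approximate.

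**Figure D1:**
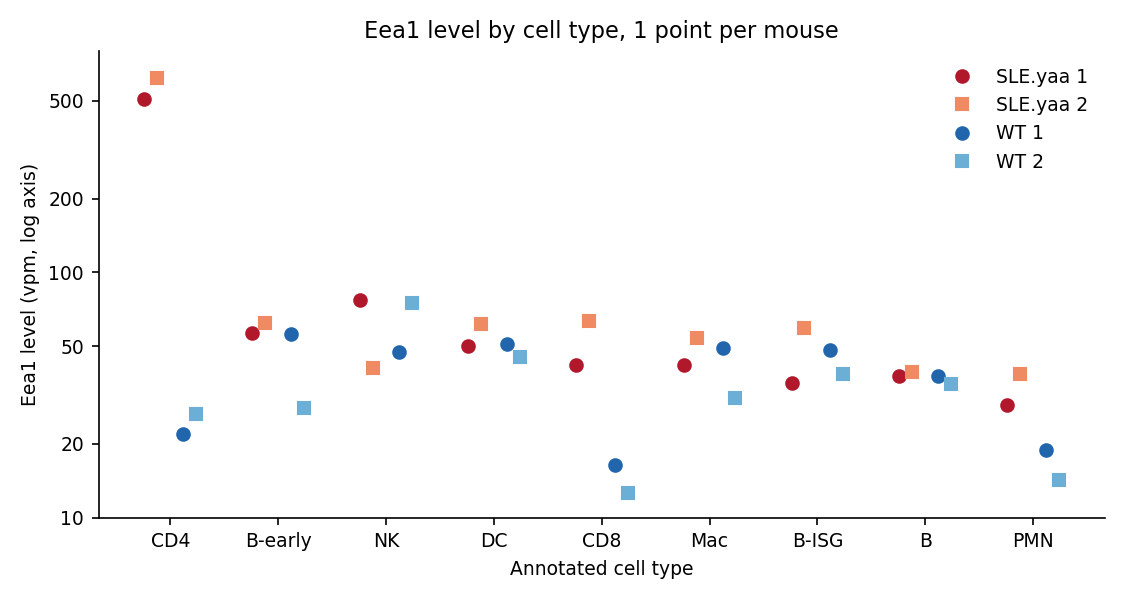
Eea1 level in vpm on a log axis for each of 9 annotated cell types, 1 point per mouse, SLE.yaa mice left of WT mice. The CD4 T cells of the SLE.yaa mice stand at 511 and 619 vpm, apart from every other point, while the CD4 cells of the WT mice are at 22.0 and 26.5 vpm.

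The same contrast held in the share of cells with Eea1. In CD4 T cells it was 58.9% (55.0 to 62.8) and 63.1% (58.9 to 67.1) in SLE.yaa mice, against 6.27% (4.69 to 8.19) and 6.71% (5.11 to 8.63) in WT mice. In CD8 T cells it was 18.2% (14.0 to 23.1) and 16.0% (12.2 to 20.3) in SLE.yaa mice, against 5.36% (3.46 to 7.87) and 4.57% (3.01 to 6.62) in WT mice. B cells had 14.7% and 14.3% in SLE.yaa mice and 11.3% in each WT mouse. Eea1 is made in most cell types, so no annotated type can serve as one that should lack it. The share in neutrophils was 7.41% and 8.82% in SLE.yaa mice and 5% and 4.32% in WT mice, at median depths of 2369, 2713, 1640 and 1547 UMIs in that order of mice. The depth of the CD4 cells was similar in both groups, with median UMIs of 4292 and 3660 in SLE.yaa mice and 4003 and 4407 in WT mice. Within cells of 2500 to 5000 UMIs the shares in CD4 cells were 62.7% and 65.5% in SLE.yaa mice and 6.54% and 7.20% in WT mice.

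Cells with high values were mostly of 1 kind. A value of 3 or more was found in 477 cells of the whole table, and 396 of them (83.0%) were CD4 T cells of SLE.yaa mice, a population that made up 5.32% of all cells and held 47.2% of the summed Eea1 value. Among CD4 cells, 200 (31.5%) and 196 (35.6%) reached 3 in SLE.yaa mice, against 1 and 6 cells in WT mice. The highest values were 20 and 19 in SLE.yaa CD4 cells and 4 and 6 in WT CD4 cells. Among the CD4 cells with Eea1 the mean value was 3.93 and 4.06 in SLE.yaa mice and 1.26 and 1.5 in WT mice, so the groups differed both in how many cells had a value and in how high it was. CD8 cells with Eea1 seldom passed 2: 2 and 8 CD8 cells reached 3 in SLE.yaa mice, and 1 in each WT mouse.

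**Figure D2:**
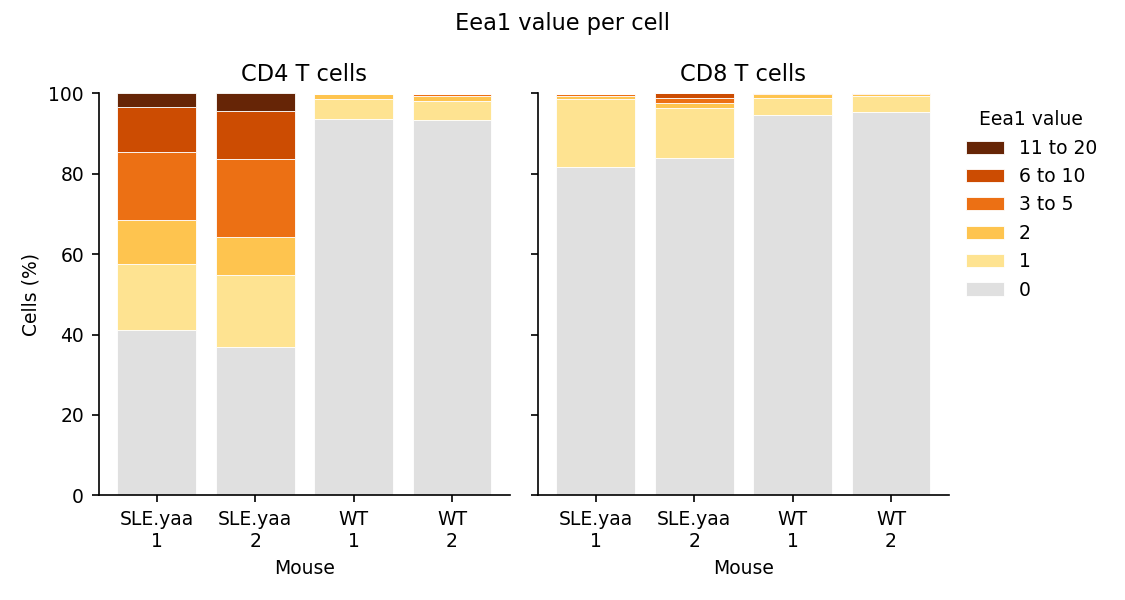
Share of CD4 (left) and CD8 (right) T cells by Eea1 value, the depth-adjusted whole number per cell, 1 stacked bar per mouse. Values of 3 or more fill 31.5% and 35.6% of the CD4 bars of the SLE.yaa mice and are rare in all other bars.

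Within T cells, Eea1 went with an activated state. Each cell was called activated or naive by whether it had a value for more of 20 activation and effector genes or of 10 naive T cell genes, and ties were left out. Of the CD4 cells of SLE.yaa mice, 522 of 635 and 512 of 550 were called activated. In WT mice these were 91 of 797 and 74 of 834. The level over all CD4 cells thus compares mostly activated SLE.yaa cells with mostly naive WT cells. In CD4 cells 68.4% and 66.2% of the activated cells had Eea1 in SLE.yaa mice, and 25.3% and 29.7% in WT mice. Of the naive CD4 cells, 15.6% and 20.6% had it in SLE.yaa mice, and 3.55% and 4.07% in WT mice. Activated minus naive was 52.8 and 45.6 percentage points in SLE.yaa mice and 21.7 and 25.7 points in WT mice, with a mean of 36.4 ± 15.1 points (SD over 4 mice). All 4 mice went the same way, for which an exact two-sided sign-flip test gives p = 0.13, the smallest p that 4 mice allow.

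In CD8 cells the activated share was 27.4% and 18.2% in SLE.yaa mice and 12.3% and 11.8% in WT mice, and the naive share was 8.22% and 5.56% in SLE.yaa mice and 3.99% and 3.33% in WT mice. The difference averaged 12.1 ± 5.11 points and was positive in 4 of 4 mice (exact sign-flip p = 0.13, the smallest possible). The groups stayed apart when activated cells alone were compared: activated CD4 cells had 639 and 701 vpm in SLE.yaa mice, against 95.9 and 147 vpm in WT mice, a log2 difference of 2.40. Activated CD8 cells had 71.1 and 80.3 vpm in SLE.yaa mice, against 43.7 and 40.8 vpm in WT mice (log2 difference 0.71). The naive CD4 cells of the SLE.yaa mice had Eea1 more often than the naive CD4 cells of the WT mice, without overlap. They were few in SLE.yaa mice, with Eea1 in 15 of 96 and 7 of 34 cells (intervals 9.02 to 24.5% and 8.70 to 37.9%).

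Single markers divided the CD4 cells in the same sense. Pdcd1, Lag3 and Icos are among the activation genes, and Igfbp4 among the naive genes, that defined the states above. The splits by these genes thus restate part of that division and are not separate support. Of the cells with Lag3, an inhibitory receptor that binds MHC class II, 76.0% and 77.4% had Eea1 in SLE.yaa mice, and 7 of 9 and 4 of 8 cells in WT mice. Of those without Lag3, 34.8% and 41.3% had Eea1 in SLE.yaa mice, and 5.46% and 6.30% in WT mice. Pdcd1, which encodes the inhibitory receptor PD-1, gave 73.7% and 79.2% with Eea1 among its positive cells in SLE.yaa mice and 40.0% and 34.3% in WT mice. Cells without Pdcd1 had 43.6% and 49.2% in SLE.yaa mice and 4.95% and 5.51% in WT mice. WT cells with these receptors were few, and their intervals are wide.

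The share climbed with the number of these receptors. With none, 1, 2 or all 3 of Pdcd1, Lag3 and the costimulatory receptor gene Icos detected, the share of CD4 cells with Eea1 was 19.4%, 47.3%, 67.0% and 84.2% in SLE.yaa 1, and 32.3%, 47.6%, 74.5% and 87.7% in SLE.yaa 2. In WT mice with none, 1 or 2 detected it was 4.42%, 13.1% and 44.4% (4 of 9 cells) in WT 1, and 4.61%, 13.6% and 46.2% (6 of 13 cells) in WT 2. The share was higher at each step in all 4 mice. At the other end, CD4 cells with Igfbp4, a naive T cell marker that encodes a binding protein of insulin-like growth factors, had Eea1 in 3 of 56 and 3 of 18 cells in SLE.yaa mice and in 2.38% and 2.24% in WT mice.

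Foxp3, the lineage factor of regulatory T cells, did not follow that pattern in both groups. Cells with Foxp3 had Eea1 in 60.3% and 57.4% in SLE.yaa mice and 23.5% and 25.4% in WT mice, and cells without Foxp3 in 58.5% and 64.6% in SLE.yaa mice and 4.66% and 5.08% in WT mice. The difference was 1.78 and -7.21 points in SLE.yaa mice and 18.9 and 20.3 points in WT mice, with a mean of 8.43 ± 13.4 points and 3 of 4 mice positive (exact sign-flip p = 0.375). Values of 3 or more were found in 23.4% and 26.1% of the Foxp3 cells of SLE.yaa mice and in 33.8% and 38.2% of their cells without Foxp3. In WT CD4 cells, where Eea1 was rare, 23.5% and 25.4% of the cells with Foxp3 had it, and in SLE.yaa CD4 cells Foxp3 made little difference to the share.

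CD8 cells were also divided by their effector genes. Ccl5, Lag3 and Gzmk are among the activation genes that defined the states, so these splits are not separate support. Ccl5 encodes a chemokine of effector and memory CD8 cells. With Ccl5 the share with Eea1 was higher in all 4 mice by 4.90 ± 3.40 points (exact sign-flip p = 0.13, the smallest possible). Within cells of 2500 to 5000 UMIs the difference was 4.27 ± 4.27 points (exact sign-flip p = 0.25). CD8 cells with Lag3 had Eea1 in 31.9% and 27.1% in SLE.yaa mice and in 3 of 7 and 2 of 10 cells in WT mice. CD8 cells with Gzmk, a granzyme gene, had it in 30.9% and 19.0% in SLE.yaa mice and in 2 of 10 and 0 of 11 cells in WT mice, where 0 of 11 allows a share of up to 27.3% at 3 counts and 28.5% by the exact interval. A small set of cells annotated CD8 also had a Cd4 value, and 7 of 22 and 11 of 40 of them had Eea1 in SLE.yaa mice, against 1 of 8 and 1 of 9 in WT mice. Leaving these out, 17.1% and 14.4% of the other CD8 cells had Eea1 in SLE.yaa mice, and 5.23% and 4.46% in WT mice. These shares were close to those over all CD8 cells, but the mean value was not in SLE.yaa 2. There it fell from 0.257 over all CD8 cells to 0.168 without these cells. In SLE.yaa 1 it went from 0.206 to 0.186, in WT 1 from 0.0670 to 0.0659 and in WT 2 from 0.0527 to 0.05.

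**Figure D3:**
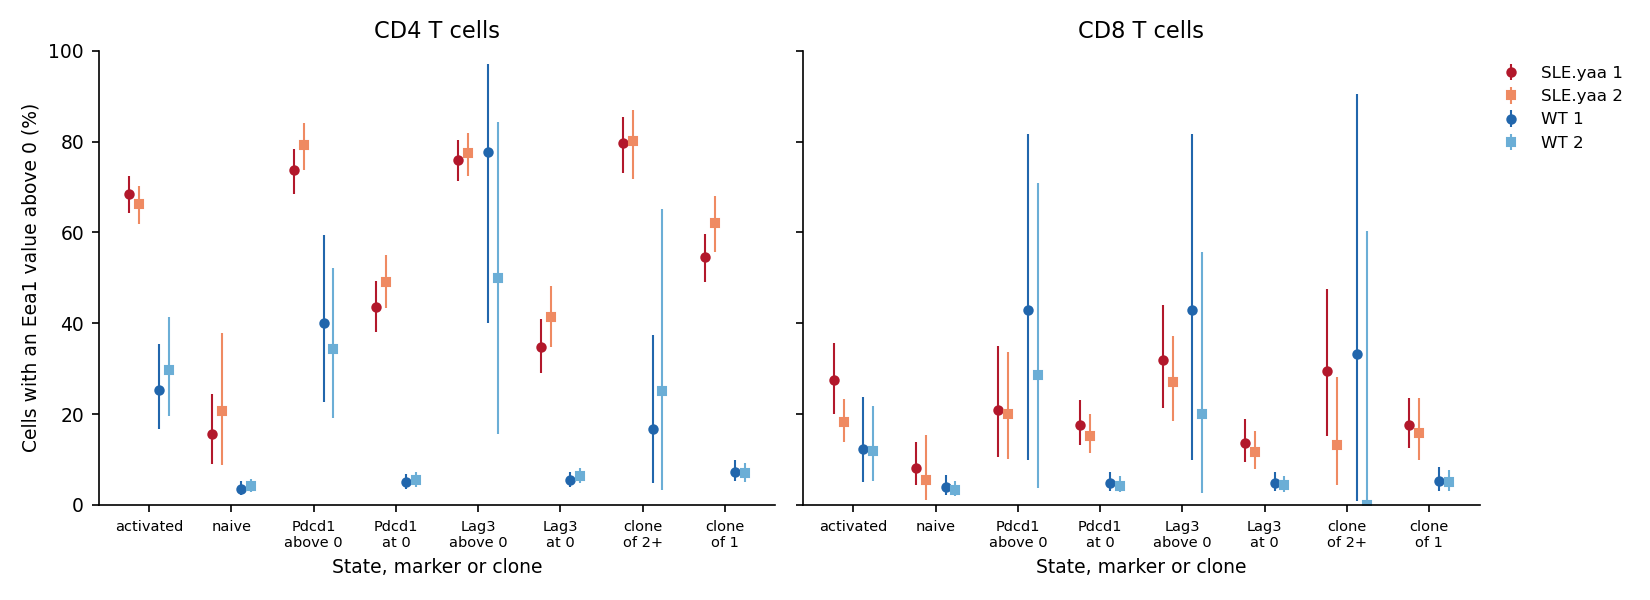
Share of CD4 (left) and CD8 (right) T cells with Eea1, by state, by Pdcd1 and Lag3 and by the size of the receptor clone, with exact binomial 95% intervals per mouse. Activated CD4 cells reach 68.4% and 66.2% in SLE.yaa mice and 25.3% and 29.7% in WT mice, above the naive cells of the same mouse.

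T cell receptor clones gave a further view, since cells of 1 clone descend from 1 cell. In CD4 cells of clones with 2 or more cells, 79.8% and 80.2% had Eea1 in SLE.yaa mice, and 4 of 24 and 2 of 8 cells in WT mice. In CD4 cells that were alone in their clone, 54.5% and 62.0% had it in SLE.yaa mice and 7.31% and 6.97% in WT mice. The difference averaged 17.7 ± 6.52 points and was positive in 4 of 4 mice (exact sign-flip p = 0.13, the smallest possible). Clones of 3 or more cells had 87.1% and 81.2% in SLE.yaa mice. In SLE.yaa 1 all 20 such clones had at least 66.7% of their cells with Eea1, and in 15 of them every cell had it. In SLE.yaa 2 every cell had it in 8 of 15 such clones, and the lowest clone had 25.0%. The largest CD4 clone of the SLE.yaa mice, in SLE.yaa 1, had 11 cells, all with Eea1, and a mean value of 7.73. WT 1 had a single CD4 clone of 3 or more cells, with Eea1 in 2 of 13 cells.

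Expanded clones are mostly of activated cells, so the comparison was repeated among activated CD4 cells. There, clones of 2 or more cells had Eea1 in 79.8% and 81.6% and clones of 1 in 66.8% and 65.5% in SLE.yaa mice. In WT 1 it was 4 of 17 cells against 34.0%, the opposite direction, and WT 2 had only 2 such cells in clones. CD8 clones gave no steady pattern: the difference averaged 8.05 ± 15.3 points, with 2 of 4 mice positive (exact sign-flip p = 0.5). WT 1 and WT 2 had only 3 and 4 CD8 cells in clones of 2 or more cells. Among activated CD8 cells, 3 mice had both kinds and the mean turned to -6.03 points. There WT 1 had only 1 cell in a clone of 2 or more cells.

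The genes that went along with Eea1 were sought by comparing, within each mouse and T cell type, cells with Eea1 and cells without it. The fit was limma on paired differences over the 4 mice, with Benjamini-Hochberg adjustment over all genes tested and a threshold of 0.05. The CD4 cells with Eea1 numbered 374 and 347 in SLE.yaa mice and 50 and 56 in WT mice, and the CD8 cells with Eea1 53 and 54 in SLE.yaa mice and 24 and 26 in WT mice. Of 8147 genes tested in CD4 cells, 369 (4.53%) were higher and 134 (1.64%) lower in cells with Eea1. Of 8173 genes tested in CD8 cells, 28 (0.343%) were higher and 59 (0.722%) lower. With TMM scaling between the paired groups the split turned to 197 higher and 222 lower in CD4 cells and to 14 higher and 123 lower in CD8 cells. Without SLE.yaa 1, WT 1 or WT 2 the number of genes higher in CD4 cells was 163, 200 or 192, and the number lower was 78, 56 or 70. Median UMIs of CD4 cells with and without Eea1 were close, at 4310 and 4264 in SLE.yaa 1, 3728 and 3623 in SLE.yaa 2, 4046 and 4002 in WT 1, and 4387 and 4407 in WT 2. The median number of genes detected was higher in CD4 cells with Eea1 in every mouse, at 1971 with and 1796 without it in SLE.yaa 1, 1713 and 1611 in SLE.yaa 2, 1703 and 1566 in WT 1, and 1788 and 1659 in WT 2. Its part in the calls was not tested.

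In CD4 cells with Eea1, receptors and factors of chronically stimulated T cells were higher, with 5 of the 6 exhaustion genes tested, 11 of 19 activation genes, 8 of 10 follicular helper genes and 7 of 8 regulatory T cell genes called higher and none lower. Their median log2 differences were 1.82, 1.11, 1.04 and 1.24, against 0.10 over all genes tested, and the lists share members. Lag3 had 733 and 633 vpm in the cells with Eea1 and 201 and 265 vpm in those without it in SLE.yaa 1 and 2, and 53.0 and 37.2 vpm with and 0.723 and 1.69 vpm without it in WT 1 and 2. Every mouse had more Lag3 in cells with Eea1, by 1.90 ± 0.18 (log2, SE, limma adjusted p = 7.79e-05). The inhibitory receptor gene Tigit had 686 and 594 vpm with Eea1 and 225 and 302 vpm without it in SLE.yaa mice, and 159 and 112 vpm with and 9.40 and 11.2 vpm without it in WT mice (log2 2.04 ± 0.25, limma adjusted p = 0.000318). Pdcd1 had 441 and 321 vpm with and 187 and 135 vpm without Eea1 in SLE.yaa mice, and 79.6 and 79.0 vpm with and 7.23 and 9.82 vpm without it in WT mice (log2 1.73, limma adjusted p = 0.000154). All 3 receptors separated the cells within each mouse.

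On the higher side, the greatest difference among the named genes in CD4 cells was that of Angptl2, which encodes a secreted angiopoietin-like protein. It had 132 and 141 vpm with Eea1 and 8.85 and 16.7 vpm without it in SLE.yaa mice, and 21.2 and 51.1 vpm with and 0.723 and 1.02 vpm without it in WT mice (log2 2.36 ± 0.22, limma adjusted p = 7.79e-05). CD4 cells without Eea1 had at most 16.7 vpm of it in any mouse. Penk, the precursor gene of enkephalin peptides, followed at 2.25, and Tbc1d4, which encodes a GTPase-activating protein of Rab proteins in vesicle traffic, at 1.89 ± 0.14 (limma adjusted p = 1.87e-05). Tnfrsf4 (OX40, 1.95) and Tnfrsf9 (4-1BB, 1.78), costimulatory receptors of the TNF receptor family, were higher too. So were the checkpoint receptor Ctla4 (1.92), the factor Maf of helper T cells (1.90) and the zinc finger factor Hivep3 (1.78).

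Follicular helper genes called higher included Icos (1.13), the chemokine receptor Cxcr5 (1.03), Tox (0.96) and the lineage factor Bcl6 (0.85), although Bcl6 lost its call without SLE.yaa 1. Il21, the cytokine of follicular helper cells, had 175 and 119 vpm with Eea1 and 31.0 and 20.3 vpm without it in SLE.yaa mice and was listed at 0 in all WT CD4 cells (log2 1.06, limma adjusted p = 0.088). Among regulatory genes, Izumo1r, which encodes folate receptor 4, was 1.35 higher and the factor Ikzf2 (Helios) 1.31 higher. The interleukin-2 receptor gene Il2ra was 1.17 higher but lost its call without either WT mouse. Foxp3 had 154 and 132 vpm with Eea1 and 165 and 154 vpm without it in SLE.yaa mice, against 286 and 204 vpm with and 53.9 and 43.4 vpm without it in WT mice, and did not pass (limma adjusted p = 0.0975).

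Naive T cell genes were lower in CD4 cells with Eea1: 8 of 10 were called lower and none higher, with a median log2 difference of -1.01. Igfbp4 had 4.27 and 13.0 vpm with Eea1 and 351 and 89.6 vpm without it in SLE.yaa mice, and 175 and 214 vpm with and 670 and 704 vpm without it in WT mice (log2 -2.58 ± 0.34, limma adjusted p = 0.000569). The log2 difference was -1.58 for Satb1, a chromatin organiser of T cells, and -1.08 for Lef1, a factor of naive T cells. The chemokine receptor gene Ccr7, which guides T cells to lymphoid tissue, was also lower, with a difference of -1.08. The surface protein genes Ly6c2 and Ly6c1 had differences of -1.83 and -1.74. Tcf7, another naive T cell factor, did not pass (-0.31, limma adjusted p = 0.0797).

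Ribosomal protein genes, a group picked after their values were seen, made up much of the lower side: 64 of 83 were lower in CD4 cells with Eea1 (median log2 -0.33), and 46 of 83 in CD8 cells (median -0.18). Of other lists in CD4 cells, 3 of 9 immediate early genes and 3 of 4 proliferation genes were higher. Of 19 interferon-stimulated genes, 1 was higher and 1 lower, where 4.53% of all genes were higher and 1.64% lower. Only 4 of the 10 proliferation genes listed were tested. Their calls were weak: Mki67 (limma adjusted p = 0.04998) lost its call whichever mouse was left out. Tyms and Top2a kept theirs in only 1 of 4 such runs each. Among markers of other cell types, 2 of 7 plasma cell genes and 1 of 2 macrophage genes were higher, 1 of 6 monocyte genes was higher and 1 lower, and the 1 platelet gene tested was lower. Of 10 B cell markers none was called in either direction. Their summed level was 1447 and 1903 vpm with Eea1 and 1541 and 2079 vpm without it in SLE.yaa mice, and 2795 and 2662 vpm with and 1991 and 1763 vpm without it in WT mice. The sums were higher in cells with Eea1 in both WT mice and lower in both SLE.yaa mice. After removal of cells with 3 or more markers of a B cell, plasma cell, monocyte or neutrophil list, 272 genes were higher and 122 lower.

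The comparison was then kept to activated CD4 cells. Of 8185 genes, 27 (0.33%) were higher and 17 (0.208%) lower in activated cells with Eea1, and 43 of these 44 were also called over all CD4 cells. Angptl2 (log2 2.27 ± 0.28, limma adjusted p = 0.02), Lag3 (1.78 ± 0.28, limma adjusted p = 0.0282), Tigit (1.13 ± 0.19, limma adjusted p = 0.0346), Maf (1.08) and Tnfrsf4 (1.06) were among the genes still higher. Other genes higher there, picked after their values were seen, were the kinase gene Zap70 (0.97), the calcium-regulated factor Nfatc1 (0.94) and the CD3 subunit genes Cd3e, Cd3d and Cd3g (0.61, 0.54 and 0.53). Most named genes lost their call there: 6 kept it, 42 were no longer called and 3 changed sign. Activated WT cells with Eea1 numbered only 23 and 22. Not called were Pdcd1 (1.09, limma adjusted p = 0.139), Ctla4 (1.29, limma adjusted p = 0.0581) and Icos (0.56, limma adjusted p = 0.0936). Cxcr5 (0.58), Bcl6 (1.13), Satb1 (-0.64) and Lef1 (-0.44) were not called either. Of the naive genes, Ccr7 turned to 0.30 in activated cells and was not called.

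In CD8 cells with Eea1 the gene with the highest log2 difference among those past the threshold was Lag3. It had 255 and 341 vpm with Eea1 and 91.8 and 87.9 vpm without it in SLE.yaa mice, and 52.1 and 18.9 vpm with and 2.38 and 4.12 vpm without it in WT mice (log2 1.65 ± 0.23, limma adjusted p = 3.94e-05). Ptms, the parathymosin gene, was higher in every mouse, with 259 and 333 vpm with and 94.4 and 180 vpm without Eea1 in SLE.yaa mice and 83.3 and 94.4 vpm with and 22.6 and 22.0 vpm without it in WT mice (log2 1.36 ± 0.18, limma adjusted p = 2.91e-05). Tigit (1.41, limma adjusted p = 0.000722) and Eomes (0.88, limma adjusted p = 0.000875), a factor of effector and memory CD8 cells, kept their calls when any 1 mouse was left out. Pdcd1 (1.35) lost its call without SLE.yaa 1 or WT 1, and Tnfrsf4 (1.48) without either SLE.yaa mouse. Ccl5 was 0.78 higher (limma adjusted p = 1.35e-05) over all CD8 cells and -0.01 among activated CD8 cells, which left the SLE.yaa mice alone with enough cells. On the lower side, Igfbp4 (-1.22 ± 0.19, limma adjusted p = 0.000201) and Rgs10 (-0.90, limma adjusted p = 0.000942), a regulator of G protein signalling, kept their calls, while Satb1 (-0.74) lost its call without either SLE.yaa mouse.

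By list, 7 of 20 activation genes and 3 of 8 exhaustion genes were higher in CD8 cells with Eea1 and 3 of 10 naive genes lower, with medians of 0.44, 0.77 and -0.32, against 0.02 over all genes. None of 10 B cell markers and none of 3 neutrophil markers tested was called, although the medians were 0.41 and 1.61. The summed B cell markers were 1168 and 813 vpm with Eea1 and 1238 and 1400 vpm without it in SLE.yaa mice, and 1740 and 3199 vpm with and 832 and 926 vpm without it in WT mice. Neutrophil markers summed to 31.4 and 1736 vpm with Eea1 and 26.0 and 87.9 vpm without it in SLE.yaa mice, and to 31.2 and 406 vpm with and 80.9 and 34.8 vpm without it in WT mice. Median UMIs of CD8 cells with and without Eea1 were 5663 and 6309 in SLE.yaa 1, 4299 and 4264 in SLE.yaa 2, 5841 and 5339 in WT 1, and 6588 and 5680 in WT 2. Without cells holding 3 or more such markers, 18 genes were higher and 24 lower in CD8 cells. A total of 64 genes were called in both CD4 and CD8 cells, 12.7% of the 503 CD4 calls and 64 of the 87 CD8 calls. Of these 64 genes, 45 were ribosomal protein genes, all lower in both types. Of the other 19, 15 were higher in both and 4 lower in both.

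**Figure D4:**
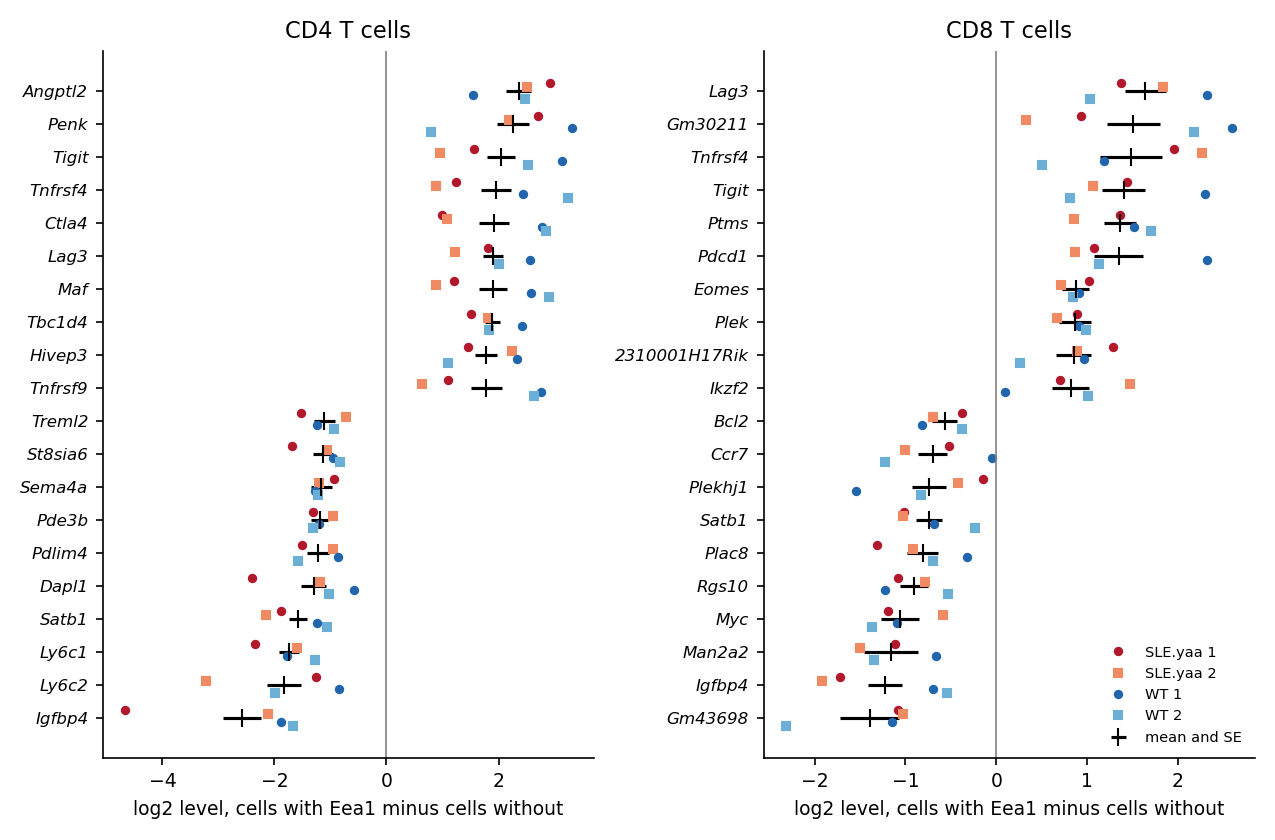
Log2 difference in level between cells with and without Eea1 in CD4 (left) and CD8 (right) T cells, for the 10 highest and 10 lowest genes past the threshold with 1 sign in every mouse. Points are mice and black marks the mean with its SE; Lag3, Tigit and Tnfrsf4 are among the higher genes and Igfbp4 and Satb1 among the lower genes in both tests.

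Within SLE.yaa CD4 cells the other genes could be followed along the Eea1 value. This description has no test, and its 9 genes were chosen after their values were seen. In cells with Eea1 at 0, 1 to 2, 3 to 5 and 6 to 20, the share with Il21 was 5.75%, 17.2%, 34.3% and 59.8% in SLE.yaa 1, and 4.93%, 13.2%, 26.2% and 40.4% in SLE.yaa 2. Lag3 was found in 34.1%, 66.1%, 82.4% and 84.8% in SLE.yaa 1, and in 36.9%, 60.9%, 82.2% and 86.5% in SLE.yaa 2. Pdcd1 was found in 32.6%, 53.4%, 66.7% and 79.3% in SLE.yaa 1, and in 26.1%, 47.0%, 59.8% and 75.3% in SLE.yaa 2. Each of these 3 genes was more frequent at every step of Eea1, and Il21 was still climbing at the top step where Lag3 had levelled off. Foxp3 went the other way at the top, with 21.5%, 29.9%, 18.5% and 14.1% in SLE.yaa 1, and 24.1%, 23.8%, 17.8% and 12.4% in SLE.yaa 2. Cxcr5, the receptor that guides helper cells to B cell follicles, stayed low at 11.5%, 21.8%, 15.7% and 18.5% in SLE.yaa 1, and 6.90%, 11.3%, 11.2% and 11.2% in SLE.yaa 2. Igfbp4 was found in 20.3% and 7.39% of the cells with Eea1 at 0 and in 1.72% and 1.32% of those at 1 to 2. Outside the 9 genes, Cd4 itself was found in 64.8%, 80.5%, 75.0% and 92.4% in SLE.yaa 1, and in 64.5%, 78.8%, 94.4% and 91.0% in SLE.yaa 2. A rise with Eea1 was thus not particular to the receptors and Il21, and the part of general detection was not tested. Icos fell from 77.8% to 72.8% at the top step in SLE.yaa 1 and rose from 59.8% to 80.9% in SLE.yaa 2.

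**Figure D5:**
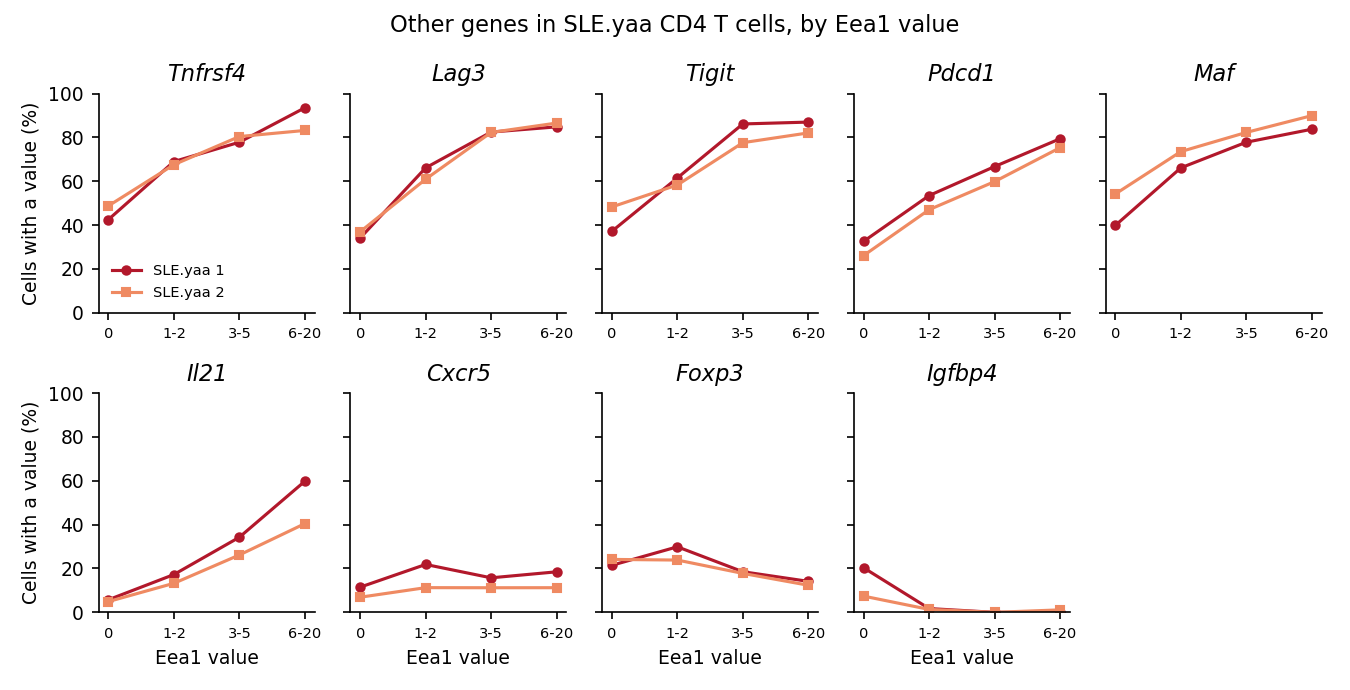
Share of SLE.yaa CD4 T cells with a value for each of 9 genes, by the Eea1 value of the cell, 1 line per mouse. Il21 climbs to 59.8% and 40.4% in the cells with Eea1 at 6 to 20, while Igfbp4 is most frequent in cells with Eea1 at 0 and Foxp3 ends at 14.1% and 12.4%.

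Across cell types, the genes most like Eea1 were ranked by Pearson's r over 36 means (9 types in 4 mice) on log2(vpm + 10), among 10933 genes. The means share libraries, so r is given as a description. The first 10 were Tshz2 (r = 0.877), Il21 (0.873), D430019H16Rik (0.872), Bace2 (0.870), Chn1, Tex35, Gm43057, Gm49180, Ecel1 and Slc24a3 (0.866). Each was present in SLE.yaa CD4 cells, from 12.2 vpm for Gm43057 to 99.4 vpm for Il21, and listed at 0 in WT CD4 cells. Their group means were at most 2.39 vpm in CD8 cells and 0.547 vpm in B cells. A gene needed 10 vpm in only 2 of the 36 means to be ranked. The 2 SLE.yaa CD4 means, for which Eea1 was selected, were thus enough for these genes to enter, and the ranking is no separate support. Without the 2 SLE.yaa CD4 means their r fell to between 0.0134 and 0.2105, so the likeness rests on that pair of points.

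The partners of Eea1 in the endosome were compared between the groups next. Of a list of 67 early endosome genes, 61 were tested between SLE.yaa and WT CD4 cells with limma, and 9 were higher and 0 lower, where 15.8% of all 8415 genes were higher and 12.3% lower. At an unadjusted p under 0.05, 1 was lower. The median log2 difference was 0.10, against -0.01 over all genes. Rab5a, a GTPase that recruits Eea1, had 67.4 and 62.9 vpm in SLE.yaa mice and 67.5 and 66.2 vpm in WT mice (log2 -0.03, limma adjusted p = 0.878). Rab5c had 100.4 and 99.4 vpm in SLE.yaa mice and 86.0 and 78.8 vpm in WT mice (log2 0.25, limma adjusted p = 0.157). Rab5b (0.12), Rbsn, which encodes the Rab5 effector rabenosyn-5 (0.13), Vps45, a fusion factor that works with it (0.32), and Pik3c3, the lipid kinase that makes phosphatidylinositol 3-phosphate (0.16), did not pass either.

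The share of the list called higher was near that of all genes, so its 9 calls are given as single genes. The SNARE gene Vamp8 had 297 and 354 vpm in SLE.yaa mice and 134 and 118 vpm in WT mice (log2 1.30 ± 0.13, limma adjusted p = 2.76e-06). Wdfy1, which like Eea1 encodes a FYVE domain protein, had 35.1 and 33.0 vpm in SLE.yaa mice and 9.44 and 7.88 vpm in WT mice (log2 1.24, limma adjusted p = 1.45e-05). Rab11a, the GTPase of recycling endosomes, had 150 and 156 vpm in SLE.yaa mice and 71.7 and 67.1 vpm in WT mice (log2 1.04, limma adjusted p = 1.6e-05). None of these groups overlapped. The others were the recycling ATPases Ehd1 (1.12) and Ehd4 (1.02), the SNARE gene Stx6 (0.97), the sorting genes Snx2 (0.83) and Vps29 (0.70), and Gdi2 (0.73), which encodes an inhibitor that extracts Rab proteins from membranes. Without scaling between mice, which moved the median of all genes to 0.16, 18 of the list were higher.

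In CD8 cells 1 of 60 endosome genes tested was higher and 0 lower, where 2.49% of all 8281 genes were higher and 0.652% lower. At an unadjusted p under 0.05, 6 were higher and 3 lower. The gene was Wdfy1, with 31.5 and 22.6 vpm in SLE.yaa mice and 7.14 and 10.5 vpm in WT mice (log2 0.97, limma adjusted p = 0.0247), and its call was lost without either WT mouse. Without SLE.yaa 1, 7 of the list were higher and 4 lower. Rab5a in CD8 cells had 58.0 and 66.2 vpm in SLE.yaa mice and 62.6 and 63.7 vpm in WT mice (limma adjusted p = 0.965).

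Between cells with and without Eea1, 3 of 60 endosome genes were higher in CD4 cells and none lower, where 4.53% of all genes were higher and 1.64% lower, so the count was near that of all genes. The 3 were Ehd1 (0.78), Rab11a (0.60) and Vamp8 (0.54). Each of the 3 lost its call when at least 1 mouse was left out, Ehd1 without SLE.yaa 1, SLE.yaa 2 or WT 1, and Rab11a and Vamp8 without SLE.yaa 1 or WT 1. The median of the list was 0.12, close to the 0.10 of all genes. Rab5a did not pass (0.38, limma adjusted p = 0.153). In CD8 cells none of 60 was called in either direction, where 0.343% of all genes were higher and 0.722% lower.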

How the data were processed

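Seurat 4.0.0, Cell Ranger 5.0.0 and GRCm38 (mm10) are named, with no role given, per the submitters' processing notes. The deposited expression values are natural logs (ln) of 1 plus a whole number (within 1.64e-11), which the authors had adjusted for depth in a way that these sources do not state. They are not UMI counts, so limma on log2 values replaced the count test first planned. The authors' cell table gives UMI counts, the percent of mitochondrial UMIs, heat shock and cell cycle scores (percent and scores deposited but not needed for a result) and the annotated types. Receptor tables give clones. Groups come from the labels.

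Rows without a gene name (15, holding 0.0440% of the values) were left out. Means per mouse and type were scaled to 1000000 (vpm) and between mice with TMM factors (edgeR 4.0.16). Testing used genes at 10 vpm or more in at least 2 mice, with limma 3.58.1 (R 4.3.3, trend) on log2(vpm + 10), two-sided, with Benjamini-Hochberg adjustment. Cells with and without Eea1 were compared as paired differences over mice, for genes with a mean of at least 10 vpm, scaled to the sum only, and Eea1 was left out. The fits were also run on simulated data with changes planted in genes of higher level only. Those data were drawn without pairing within mice, so they do not vouch for the paired fit or for genes near the floor. With n = 2 mice per group, limma takes much of the variance of a gene from other genes of similar level. The p-values thus do not measure the spread of that gene between these mice alone. No doublet caller was run, and cells with markers of another type were removed in an alternative. Named genes were Eea1, Rab5 genes and their partners, endosome genes past the threshold, the 10 highest and 10 lowest genes between cells with and without Eea1 with 1 sign in every mouse, members of the T cell lists, and the 10 genes most like Eea1. The gene and the lists were chosen with earlier results of these data known.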

Additional observations from a re-analysis of the deposited data

How the results depend on the processing

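No paired analysis was possible because the replicate numbers were given in accession order and tie no SLE.yaa mouse to a WT mouse; the comparison of cells with and without Eea1 is paired within mice by construction. The log2 difference of Eea1 between SLE.yaa and WT mice stayed positive in CD4 and CD8 cells in every alternative run. In CD4 cells it was 4.49 with a pseudocount of 1, 2.40 in activated cells only, and 3.93 to 4.20 when 1 mouse was left out. In CD8 cells it was 1.77 with a pseudocount of 1, 0.71 in activated cells only, and 1.10 to 1.58 when 1 mouse was left out. The endosome genes higher in SLE.yaa mice numbered 18 in CD4 cells and 2 in CD8 cells with no scaling, and 0 in CD8 cells with no filter on low values. Leaving out 1 mouse gave 7 to 10 in CD4 cells and 0 to 7 in CD8 cells, with 0 to 4 lower in CD8 cells.

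Genes higher in CD4 cells with Eea1 numbered 86 with no filter, 197 with TMM scaling, 119 in cells of 2500 to 5000 UMIs, 27 in activated cells only, and 163 to 327 when 1 mouse was left out. Genes lower in them numbered 11, 222, 84 and 17 under the same alternatives in that order, and 56 to 126. In CD8 cells, 12 were higher with a pseudocount of 1, 0 with no filter, 14 with TMM scaling, 10 in activated cells only, 18 without cells holding markers of other cell types, and 14 to 45 when 1 mouse was left out. Genes lower in CD8 cells numbered 0 with no filter, 123 with TMM scaling, 6 in activated cells only, 24 without cells holding such markers, and 20 to 69. The comparison in CD8 cells of 2500 to 5000 UMIs could not be fitted, because too few mice had 20 cells with Eea1. Leaving out 1 mouse gave differences in share of 31.0 to 41.4 points for the CD4 state, 9.78 to 13.4 for the CD8 state, 3.44 to 5.96 for Ccl5, 4.48 to 13.7 for Foxp3, 15.2 to 20.5 for CD4 clones and 1.36 to 12.4 for CD8 clones.

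Where the groups overlapped, the sign of Eea1 itself moved with single mice: it was -0.22 without SLE.yaa 2 and -0.047 without WT 2 in B-ISG, and -0.035 without WT 2 in macrophages. Called genes and shares that changed sign were S100a6 (-0.045), Itgb1 (-0.060) and Ccr7 (0.30) in activated CD4 cells, S100a6 (-0.021), Ccl5 (-0.0087) and clones (-6.03 points) in activated CD8 cells, and Gm30211 (-0.037) in CD8 cells without markers of other cell types. Of 54 genes named in CD4 cells, 36 kept their call when any 1 mouse was left out, and 8 of 23 in CD8 cells. The alternatives with activated cells only, with genes at 100 vpm or more and without cells holding markers of other types were chosen after seeing the data. The causes of these shifts were not tested. The limits are 2 mice per group, 24 and 26 WT CD8 cells with Eea1, and values that the authors had already adjusted for depth.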

Other observations

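Among B cells, Eea1 was also described by the class of the heavy chain, with no test. B cells with an IGHM or IGHD chain had Eea1 in 15.2% and 15.7% of cells in SLE.yaa mice, against 11.5% and 10.8% in WT mice. Their median depth was also higher in SLE.yaa mice, at 4834 and 4538 UMIs against 3142 and 3330 in WT mice. The part of depth in this difference was not tested for these cells. Class-switched B cells (IGHG or IGHA) had it in 3 of 51 and 6 of 79 cells in SLE.yaa mice, and in 3 of 14 and 0 of 6 cells in WT mice, too few in WT mice for a direction. Plasma cells, the antibody-secreting type, had Eea1 in 21.8% and 15.7% of cells in SLE.yaa mice and in 1 of 12 and 0 of 11 cells in WT mice. Their median depth of 10022 and 10618 UMIs in SLE.yaa mice was above that of the B cells, at 4778 and 4518 UMIs. The 0 of 11 plasma cells in WT 2 allows a share of up to 27.3% at 3 counts and 28.5% by the exact interval.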
